A study of Rattus norvegicus with 10 samples.

Results

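The volume-regulated anion and chloride channel genes described here were 10 genes picked by symbol, the Lrrc8 genes Lrrc8a to Lrrc8e, the CLC genes Clcn2, Clcn3, Clcn4 and Clcn6, and Clic6, out of 32402 genes in the count table. Polyadenylated RNA was sequenced from the supraoptic nucleus of Wistar Han rats that had gone 72 h without drinking water (dehydrated, 5 libraries) and of Wistar Han rats with free access to water (euhydrated, 5 libraries). The labels name no allele or agent other than water removal, and no age or sex is used here. The nucleus was taken on both sides as 1 mm punches of 12 coronal cryostat slices, so a library holds neurones, glia, vessels and a rim of neighbouring tissue, and fewer cells of a type cannot be told apart from less RNA per cell. The labels do not tie each library to its own animal, and the spread behind every p-value is that between libraries, which may be technical.

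Volume-regulated anion channels open when a cell swells and let chloride and small organic osmolytes such as taurine leave it. They are built from Lrrc8a, the obligatory subunit, together with other Lrrc8 proteins that set which solutes pass. In the rat supraoptic nucleus, taurine from astrocytes leaves through such anion channels and restrains magnocellular neurones when plasma is dilute. The CLC genes described here encode a plasma membrane chloride channel (Clcn2) and chloride-proton exchangers of endosomes and lysosomes (Clcn3, Clcn4 and Clcn6), and Clic6 belongs to the chloride intracellular channel family.

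Libraries held 24268398 to 28491926 counts, and levels are given as CPM, read counts scaled to a common library size with TMM factors. The defining transcripts of the nucleus were abundant, with Avp at 8475 ± 928 CPM in dehydrated libraries and 6153 ± 1218 CPM in euhydrated libraries and Oxt at 3394 ± 468 CPM and 2993 ± 252 CPM in the same order (SD, n = 5 each). A gene was called changed at an adjusted p under 0.05 in edgeR's quasi-likelihood test, with the Benjamini-Hochberg adjustment made across the 15311 genes that had enough counts. By that rule 12.7% of genes passed, 7.79% higher and 4.9% lower in dehydrated libraries, as 1192 and 750 genes. With library totals in place of TMM factors the split was 904 higher and 1173 lower.

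Of the 10 members, 8 had enough counts to be tested, and 3 of these 8 passed the threshold. That is a share of 37.5% of a small list, beside the 12.7% of all genes. The members were chosen with earlier results of these data known, so the share describes them and is no test of enrichment. Lrrc8d rose, and Clcn4 and Clic6 fell. The other 5 tested members, Lrrc8a, Lrrc8b, Lrrc8c, Clcn3 and Clcn6, did not pass. The median log2 fold change over the 8 tested members was 0.06, beside -0.0058 over all genes tested. Clic6 moved by 1.51-fold, and Lrrc8d and Clcn4 by far less. Without dehydrated 1, euhydrated 1 or euhydrated 5, or with the level of erythrocyte markers as a covariate, 1 member passed. The groups did not overlap in CPM for 3 members, Lrrc8d, Clcn6 and Clic6, which is also 37.5%, and for 10.9% of all genes tested (6.9% higher and 3.97% lower in dehydrated libraries).

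**Figure D1:**
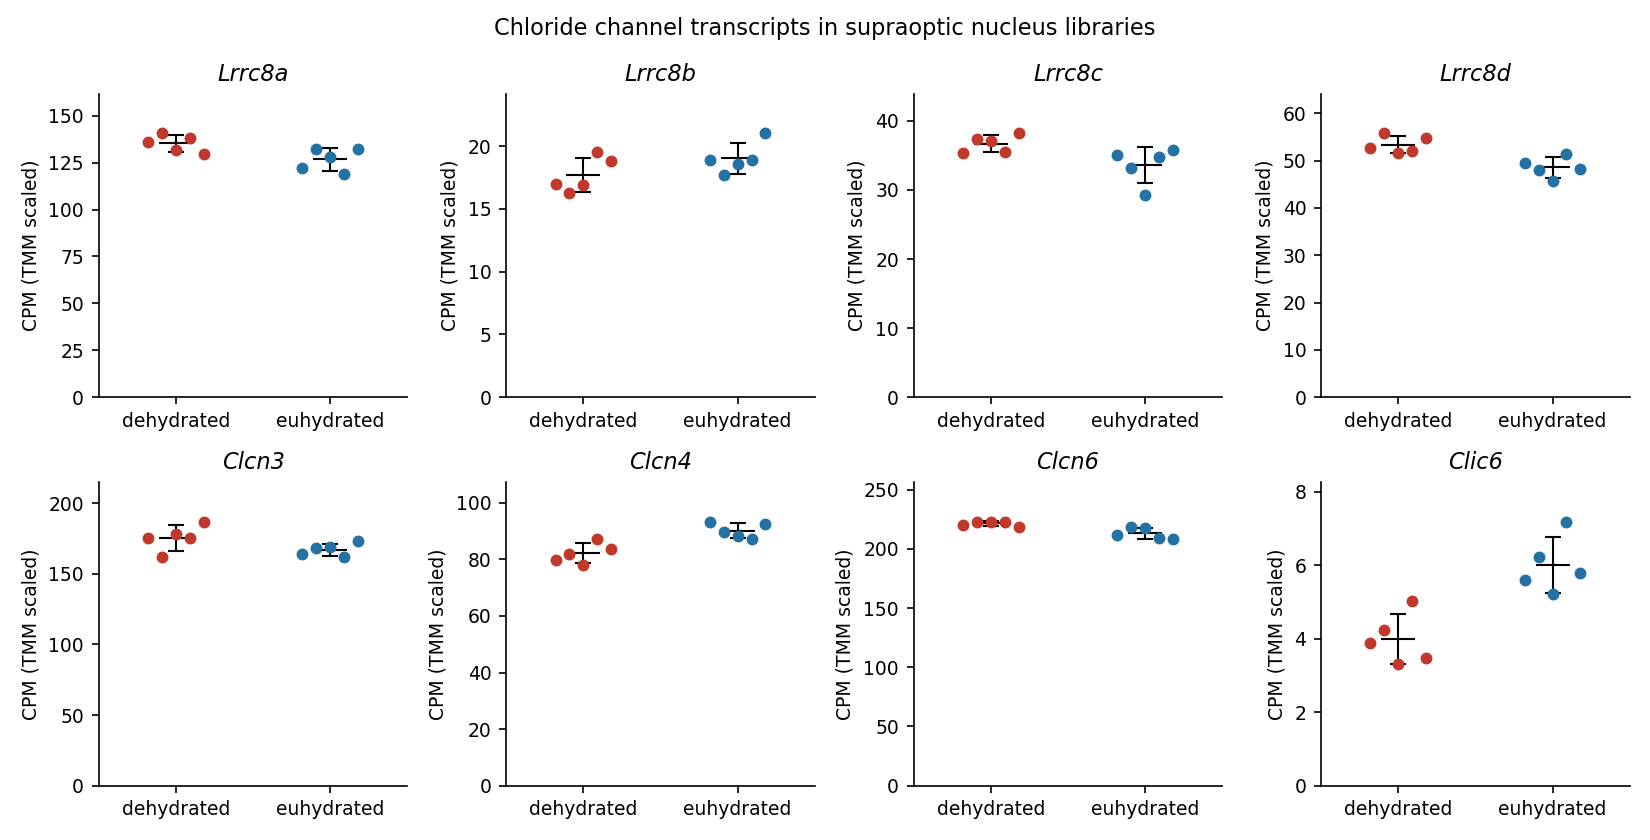
CPM after TMM scaling of the 8 tested members, with 1 point per library, dehydrated on the left and euhydrated on the right, and the mean with its SD (n = 5 each) in black. All 5 Clic6 points lie lower in dehydrated libraries (3.33 to 5.02 CPM) than in euhydrated libraries (5.23 to 7.19 CPM), while the groups lie close together for the other 7 members.

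Lrrc8a (ENSRNOG00000025296), the obligatory subunit, stood at 136, 141, 132, 138 and 129 CPM in dehydrated libraries 1 to 5 and at 122, 132, 128, 119 and 132 CPM in euhydrated libraries 1 to 5. The groups overlapped, since dehydrated 3 and 5 lay below the highest euhydrated libraries. Lrrc8a had a log2 fold change of 0.09 ± 0.04 (SE), with a 95% interval of 0.02 to 0.17, and edgeR gave an unadjusted p of 0.0212 and an adjusted p of 0.110. No alternative took Lrrc8a past the threshold (adjusted p between 0.0762 and 0.328 in all 21).

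Lrrc8d (ENSRNOG00000002121), a partner subunit known to favour the passage of taurine and other organic osmolytes, rose. Its levels were 52.6, 55.8, 51.6, 52.1 and 54.8 CPM in dehydrated libraries 1 to 5, against 49.6, 48.1, 45.6, 51.4 and 48.2 CPM in euhydrated libraries 1 to 5. Every dehydrated library was above every euhydrated library, with a narrow gap between dehydrated 3 and euhydrated 4. The means were 53.4 ± 1.81 and 48.6 ± 2.14 CPM (SD, n = 5 each) in the same order, a log2 fold change of 0.14 ± 0.04 (SE, 95% interval 0.05 to 0.22, edgeR adjusted p = 0.0397). The call was close to the threshold and was lost in 13 of 21 alternatives, with log2 fold changes between 0.11 and 0.16 over all of them and a largest adjusted p of 0.127. Among them, leaving out dehydrated 1, 2 or 5 or euhydrated 1, 2, 3 or 5 ended it (adjusted p of 0.0577 to 0.0943), as did library totals (0.115), no filter on low counts (0.0534) and the choroid plexus (0.0761), erythrocyte (0.127) and leptomeningeal (0.0801) marker levels as covariates. With these covariates, in the same order, the log2 fold change was 0.13 ± 0.04, 0.16 ± 0.06 and 0.15 ± 0.05 (SE). The estimate thus stayed near the reported 0.14, while the SE was larger than as reported.

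Lrrc8c (ENSRNOG00000002122), a partner subunit known from fat cells and endothelium, stood at 35.3, 37.3, 37.1, 35.5 and 38.2 CPM in dehydrated libraries 1 to 5 and at 35.1, 33.2, 29.3, 34.9 and 35.7 CPM in euhydrated libraries 1 to 5. Euhydrated 3 was the lowest of the 10 libraries, and the groups overlapped through euhydrated 5. The log2 fold change was 0.13 ± 0.05 (SE, 95% interval 0.01 to 0.24, edgeR adjusted p = 0.144). Lrrc8c passed in 2 alternatives, with oligodendrocyte markers (0.18, adjusted p = 0.0368) or leptomeningeal markers (0.20, adjusted p = 0.0446) as a covariate.

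Lrrc8b (ENSRNOG00000002129), a partner subunit, was the tested Lrrc8 gene with a negative log2 fold change. It stood at 17.0, 16.3, 16.9, 19.6 and 18.8 CPM in dehydrated libraries 1 to 5 and at 18.9, 17.7, 18.6, 18.9 and 21.05 CPM in euhydrated libraries 1 to 5. The groups overlapped through dehydrated 4 and 5, while dehydrated 1, 2 and 3 lay below every euhydrated library. The log2 fold change was -0.10 ± 0.06 (SE, 95% interval -0.24 to 0.03, edgeR adjusted p = 0.327). Lrrc8e (ENSRNOG00000028460), a further partner subunit, was almost absent from the counts, with 0, 2, 2, 4 and 0 reads in dehydrated libraries 1 to 5 and 5, 2, 2, 3 and 0 reads in euhydrated libraries 1 to 5, and it did not pass the filter on low counts (edgeR adjusted p = 0.803 with no filter). A count of 0 in a library allows up to 3 counts, or 0.105 to 0.126 CPM over the 10 libraries, for counting error only.

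Added up within a library, the 5 Lrrc8 genes came to 237.7 to 250.3 CPM in dehydrated libraries and 221.8 to 237.3 CPM in euhydrated libraries, ranges that nearly touched. Among the counts of the 5 genes, Lrrc8a held 55.6% ± 1.16 in dehydrated libraries and 55.6% ± 2.01 in euhydrated libraries, and Lrrc8d held 21.95% ± 0.567 and 21.3% ± 1.11 in the same order (SD, n = 5 each). Lrrc8b held 7.29% ± 0.590 in dehydrated libraries and 8.34% ± 0.429 in euhydrated libraries. These are shares of reads, not scaled to transcript length, so they set each gene against itself in the other group and do not rank the subunits, and no p was computed for them. The ratio of Lrrc8d to Lrrc8a reads was 0.377 to 0.423 in dehydrated libraries and 0.356 to 0.433 in euhydrated libraries, so the dehydrated range lay inside the euhydrated one.

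In the RefSeq gene table of assembly GRCr8, Lrrc8d, Lrrc8c and Lrrc8b follow each other on chromosome 14 with no other protein-coding gene between them, while Lrrc8a lies on chromosome 3. Upstream windows of 250 bases from RefSeq (GRCr8) are shown for Lrrc8a and Lrrc8d, the obligatory subunit and the partner that passed the threshold, so that their sequence makeup can be compared. Capitals mark matches on either strand to 4 motifs: TGACGTCA (the cAMP response element), TGANTCA (AP-1), CACGTG (an E-box) and TGGAAA (the core of the tonicity element). No matches overlapped in any member's window. The Lrrc8a window is chr3:33908086-33908335, plus strand, and the Lrrc8d window is chr14:4350237-4350486, minus strand.
Lrrc8a: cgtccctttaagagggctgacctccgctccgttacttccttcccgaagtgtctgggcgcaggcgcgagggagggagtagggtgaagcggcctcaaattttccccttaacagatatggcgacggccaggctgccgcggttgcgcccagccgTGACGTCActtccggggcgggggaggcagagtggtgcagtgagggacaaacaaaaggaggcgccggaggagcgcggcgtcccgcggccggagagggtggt
Lrrc8d: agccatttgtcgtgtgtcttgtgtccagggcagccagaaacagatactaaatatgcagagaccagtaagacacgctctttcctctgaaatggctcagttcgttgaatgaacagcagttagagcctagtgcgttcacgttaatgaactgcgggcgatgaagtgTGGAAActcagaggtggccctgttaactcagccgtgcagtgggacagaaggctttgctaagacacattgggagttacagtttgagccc
The Lrrc8a window held a full cAMP response element at positions -100 to -93 from the transcript start, a motif found in 1.59% of all 33469 windows of the same length. The Lrrc8d window held a tonicity element core at -88 to -83, a motif found in 19.7% of all windows. G and C made up 66% of the Lrrc8a window and 49.2% of the Lrrc8d window, beside a median of 51.2% over all windows. The windows of Lrrc8b and Lrrc8c held none of the 4 motifs, and that of Lrrc8e held an AP-1 match, a motif found in 6.34% of all windows. A match describes letters in the window, and whether a factor binds there was not measured.

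Clcn4 (ENSRNOG00000003533), an endosomal chloride-proton exchanger that can pair with the Clcn3 product, fell. It stood at 79.95, 82.0, 78.1, 87.2 and 83.6 CPM in dehydrated libraries 1 to 5, against 93.4, 89.7, 88.4, 87.1 and 92.4 CPM in euhydrated libraries 1 to 5. The groups met where dehydrated 4, the highest of its group, and euhydrated 4, the lowest of its group, were almost equal. The means were 82.1 ± 3.49 and 90.2 ± 2.63 CPM (SD, n = 5 each) in the same order, a log2 fold change of -0.14 ± 0.04 (SE, 95% interval -0.21 to -0.06, edgeR adjusted p = 0.0221). The call was lost in 6 of 21 alternatives, without dehydrated 1 (adjusted p = 0.0525), dehydrated 3 (0.0609), euhydrated 1 (0.0611) or euhydrated 5 (0.0507), and with oligodendrocyte (0.062) or leptomeningeal markers (0.146) as a covariate. Its log2 fold change was between -0.18 and -0.11 in all 21.

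Clcn3 (ENSRNOG00000010682), an exchanger of endosomes and synaptic vesicles, stood at 175, 162, 178, 175 and 187 CPM in dehydrated libraries 1 to 5 and at 164, 168, 169, 162 and 173 CPM in euhydrated libraries 1 to 5. Dehydrated 2 was the lowest of the 10 libraries and dehydrated 5 the highest, so the groups overlapped. The log2 fold change was 0.07 ± 0.04 (SE, 95% interval -0.0074 to 0.15, edgeR adjusted p = 0.238). Clcn6 (ENSRNOG00000008345), a late endosomal exchanger of neurones, stood at 220, 223, 222, 223 and 218 CPM in dehydrated libraries 1 to 5 and at 212, 218, 218, 209 and 209 CPM in euhydrated libraries 1 to 5. The groups did not overlap for Clcn6, yet the lowest dehydrated and highest euhydrated libraries were less than 1 CPM apart, and the log2 fold change of 0.06 ± 0.03 (SE, 95% interval 0.0016 to 0.11) did not pass (edgeR unadjusted p = 0.0446, adjusted p = 0.176). Its SE was among the smallest, with a smaller one in 0.287% of all genes tested.

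Ratios taken within a library do not depend on library scaling. These were chosen after the values had been seen and carry no p. The ratio of Clcn3 to Clcn4 reads was 2.14 ± 0.139 in dehydrated libraries and 1.85 ± 0.056 in euhydrated libraries (SD, n = 5 each), with ranges of 1.97 to 2.28 and 1.76 to 1.91 that did not overlap. The ratio of Clcn6 to Clcn4 reads was 2.56 to 2.85 in dehydrated libraries and 2.26 to 2.46 in euhydrated libraries, again without overlap. Clcn4 reads were thus fewer in dehydrated libraries relative to reads of both other exchangers.

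**Figure D2:**
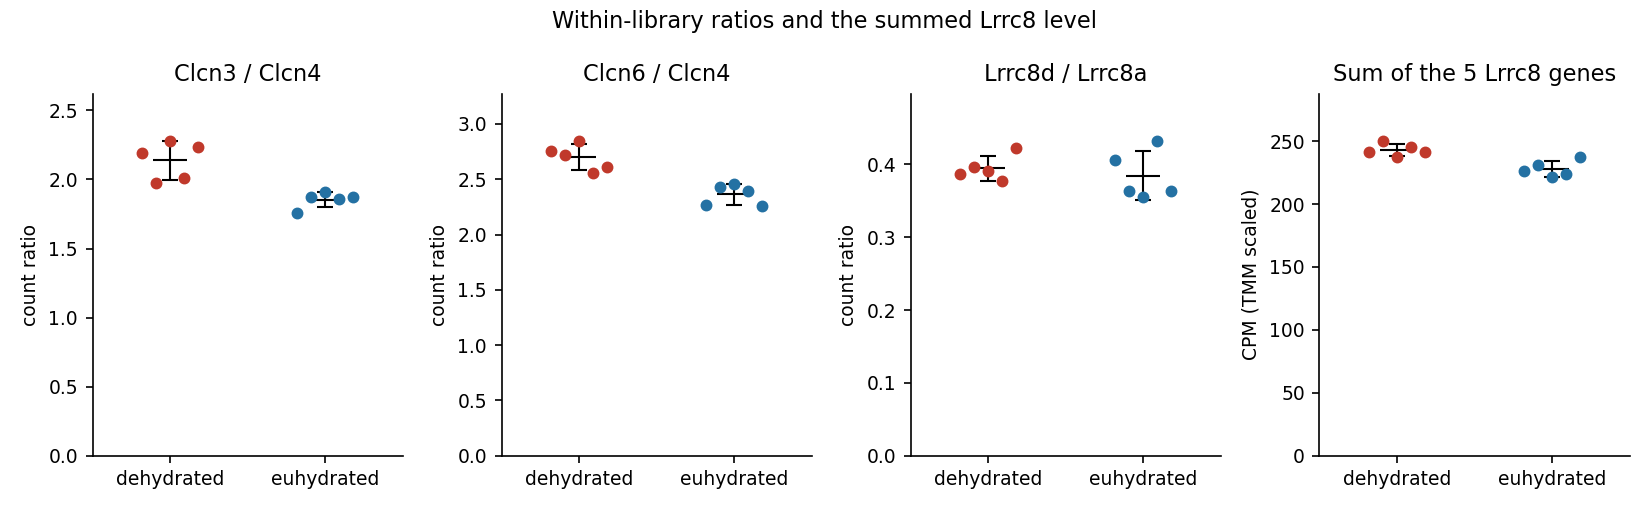
Ratios of read counts within each library for Clcn3 over Clcn4, Clcn6 over Clcn4 and Lrrc8d over Lrrc8a, and the summed CPM of the 5 Lrrc8 genes, with 1 point per library, dehydrated on the left and euhydrated on the right, and the mean with its SD (n = 5 each) in black. Both ratios to Clcn4 are higher in every dehydrated library than in any euhydrated library, while the Lrrc8d over Lrrc8a ratio overlaps between the groups.

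Upstream windows are shown for the 3 tested CLC members, which share a family but not a call. Capitals mark the same 4 motifs. The Clcn3 window is the first of 2 in the RefSeq table, at chr16:34137754-34138003, plus strand. The Clcn4 window is chrX:27290689-27290938, plus strand, and the Clcn6 window is chr5:163748199-163748448, minus strand.
Clcn3: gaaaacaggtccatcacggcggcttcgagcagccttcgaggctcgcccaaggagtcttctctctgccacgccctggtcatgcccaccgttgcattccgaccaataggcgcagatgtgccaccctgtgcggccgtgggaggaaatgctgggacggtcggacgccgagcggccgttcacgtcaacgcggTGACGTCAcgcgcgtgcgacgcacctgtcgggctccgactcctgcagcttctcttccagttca
Clcn4: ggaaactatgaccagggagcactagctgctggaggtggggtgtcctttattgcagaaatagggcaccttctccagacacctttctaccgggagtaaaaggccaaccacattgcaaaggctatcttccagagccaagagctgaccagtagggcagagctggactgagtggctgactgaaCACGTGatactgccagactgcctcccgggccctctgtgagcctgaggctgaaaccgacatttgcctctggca
Clcn6: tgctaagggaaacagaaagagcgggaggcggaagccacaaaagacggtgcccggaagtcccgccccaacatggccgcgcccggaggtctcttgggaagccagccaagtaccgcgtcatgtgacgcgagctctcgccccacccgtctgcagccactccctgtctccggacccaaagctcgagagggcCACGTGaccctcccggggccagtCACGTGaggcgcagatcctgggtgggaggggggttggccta
The Clcn3 window held a full cAMP response element at positions -63 to -56, as the Lrrc8a window did, and the second Clcn3 window held none of the 4 motifs. The Clcn4 window held an E-box at -72 to -67 and the Clcn6 window held 2, at -64 to -59 and -41 to -36, a motif found in 5.59% of all windows. G and C made up 64.4% of the Clcn3 window, 55.2% of the Clcn4 window and 66.4% of the Clcn6 window. Windows were found for 9 of the 10 members.

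Clcn2 (ENSRNOG00000001742), the plasma membrane chloride channel opened by hyperpolarisation, had 1 read, in dehydrated 1, and 0 reads in each of the other 9 libraries, and it did not pass the filter on low counts (edgeR adjusted p = 0.566 with no filter). The annotation release behind the counts is not known here. This near-zero count describes the listed identifier and does not show that the transcript was absent from the tissue.

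Clic6 (ENSRNOG00000026870) had the largest change of the 8 tested members. This chloride intracellular channel family member is known to bind dopamine receptors and to be abundant in choroid plexus epithelium. Its levels were 3.90, 4.24, 3.33, 5.02 and 3.48 CPM in dehydrated libraries 1 to 5, against 5.602, 6.23, 5.23, 7.19 and 5.80 CPM in euhydrated libraries 1 to 5. Every dehydrated library was below every euhydrated library, with dehydrated 4 close to euhydrated 3. In reads these were 107, 109, 90, 119 and 87 in dehydrated libraries and 155, 174, 150, 189 and 160 in euhydrated libraries, so counting error alone amounted to about 8.64% per library, against 1.69% for Lrrc8a. Clic6 fell 1.51-fold, to 3.99 ± 0.676 CPM in dehydrated libraries, against 6.01 ± 0.752 CPM in euhydrated libraries (SD, n = 5 each), a log2 fold change of -0.59 ± 0.12 (SE, 95% interval -0.86 to -0.33, edgeR adjusted p = 0.00524). A larger absolute log2 fold change was found in 2.74% of all genes tested. Clic6 passed without any single library (adjusted p of 0.00184 to 0.0169) and in 20 of 21 alternatives, and it was lost with erythrocyte markers as a covariate (log2 fold change -0.48 ± 0.17, SE, adjusted p = 0.123).

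Because Clic6 is a choroid plexus gene, markers of that tissue were set beside it. Leptomeningeal markers, given further below, were added because the nucleus borders the ventral brain surface. The 12 choroid plexus markers, which do not include Clic6, summed to 23.5 to 38.8 CPM in dehydrated libraries and 24.2 to 50.1 CPM in euhydrated libraries, ranges that overlapped. Of the 11 tested, 1 passed, Slc4a5, a bicarbonate cotransporter, which fell to 1.08 ± 0.306 CPM in dehydrated libraries, against 1.88 ± 0.224 CPM in euhydrated libraries (SD, n = 5 each, edgeR adjusted p = 0.0189). Log2 fold changes were negative for 8 of the 11 and positive for 3, with a median of -0.23. Kcnj13, a potassium channel, had 7.52 ± 0.467 CPM in dehydrated libraries and 5.73 ± 1.34 CPM in euhydrated libraries (SD, n = 5 each), a log2 fold change of 0.39 (edgeR unadjusted p = 0.0106, adjusted p = 0.0703), and F5, a coagulation factor gene, had one of 0.31 (edgeR adjusted p = 0.512). Kcnj13 and F5 were named after their values were seen, and the remaining positive marker was Cldn2 (0.0099, edgeR adjusted p = 0.990). Of the 11, 2 had an unadjusted p under 0.05 in edgeR, 2 passed in DESeq2 and 1 in limma-voom. Otx2 had 0 counts in all 10 libraries, and Ttr, the highest of the list in CPM, was at 7.01 ± 3.80 CPM and 10.2 ± 8.53 CPM in the same order (edgeR adjusted p = 0.669). With the mean level of these markers as a covariate, Clic6 kept its call (log2 fold change -0.57 ± 0.13, SE, edgeR adjusted p = 0.0113). Several of these markers had few reads, such as Folr1 at 0.570 CPM in dehydrated and 0.571 CPM in euhydrated libraries, so their mean is a rough measure. Whether choroid plexus tissue had a part in the fall of Clic6 was not tested.

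The 8 erythrocyte markers summed to 590.3 to 1428 CPM in dehydrated libraries and 1027 to 2058 CPM in euhydrated libraries. Hba-a1, a globin gene, was the highest of them in CPM. All 7 tested had negative log2 fold changes, from -0.66 to -1.52 with a median of -0.72, beside -0.59 for Clic6. Of these 7, 1 passed in edgeR, Slc4a1, the red cell anion exchanger (log2 fold change -1.52, edgeR adjusted p = 0.0291), 3 had an unadjusted p under 0.05, and 1 passed in DESeq2 and 0 in limma-voom. Hbe1 had 0 counts in all libraries. The 7 listed leptomeningeal markers summed to 351 to 433 CPM in dehydrated libraries and 322 to 399 CPM in euhydrated libraries, with 0 of 6 tested past the threshold in edgeR, 1 at an unadjusted p under 0.05, 1 in DESeq2 and 0 in limma-voom. Positive log2 fold changes were found for 5 of these 6. The 9 oligodendrocyte markers summed to 9617 to 12277 CPM and 10042 to 14567 CPM in the same order, with 2 of 9 lower. Of 8 microglial markers, 6 had negative log2 fold changes and 6 an unadjusted edgeR p under 0.05. In edgeR 0 passed, and in DESeq2 2. Of 7 endothelial markers tested, 5 were positive, 4 had an unadjusted edgeR p under 0.05 and 1 passed. Among 9 astrocyte markers, 8 were negative and 0 passed in edgeR. The 6 magnocellular markers summed to 10457 to 14164 CPM in dehydrated and 7595 to 10856 CPM in euhydrated libraries, with 0 past in edgeR. Of these 6, 5 were positive, 1 had an unadjusted edgeR p under 0.05 and 1 passed in DESeq2. Avp had a log2 fold change of 0.46 (edgeR unadjusted p = 0.0129, adjusted p = 0.0800) and Oxt one of 0.18 (edgeR adjusted p = 0.254). The 6 listed ependymal markers summed to 10.1 to 23.8 CPM in dehydrated and 12.0 to 20.9 CPM in euhydrated libraries. Of 5 tested, 0 passed in edgeR. The 5 listed suprachiasmatic markers summed to 6.03 to 7.87 CPM and 5.75 to 6.79 CPM in the same order. Of 4 tested, 1 passed, Prok2, at 1.36 CPM and 0.281 CPM (log2 fold change 2.25, edgeR adjusted p = 2.27e-05). The summed ranges of all these lists overlapped, and their part in the calls of Lrrc8d, Clcn4 and Clic6 was not tested beyond the covariate fits given above.

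**Figure D3:**
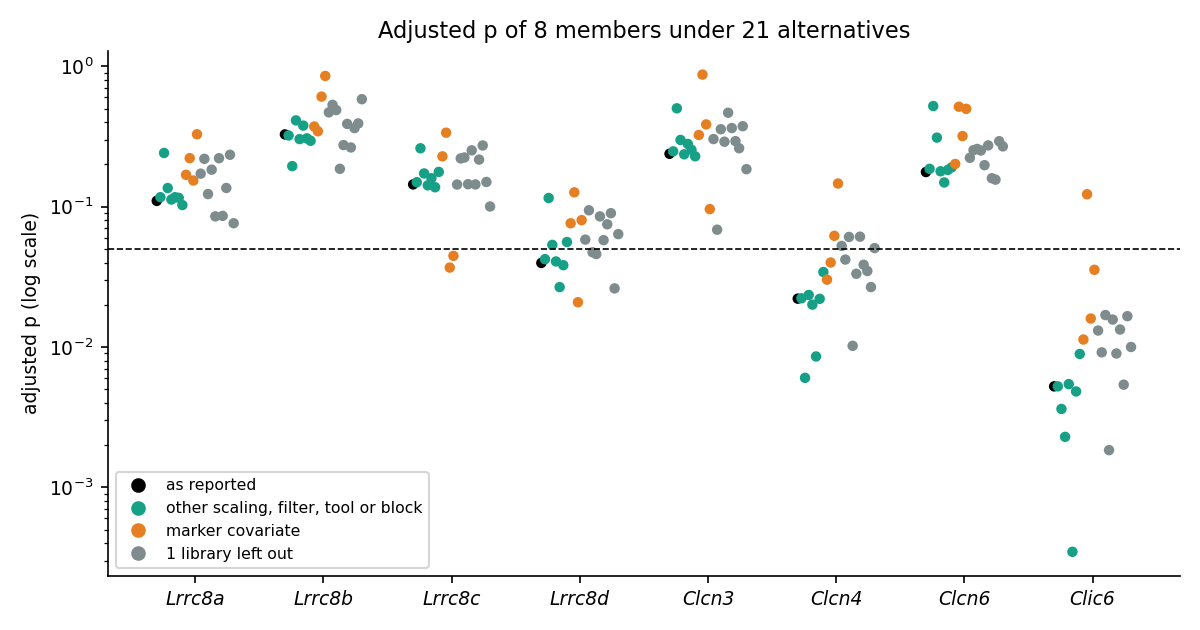
Adjusted p (log scale) of each of the 8 tested members as reported (black) and under 21 alternatives, namely another scaling, filter, tool or block (green), a cell marker level as a covariate (orange) and 1 library left out (grey), with the threshold of 0.05 dashed. Clic6 lies below the line in all but 1 alternative, Lrrc8d and Clcn4 lie close to it, and Lrrc8a, Lrrc8b, Clcn3 and Clcn6 stay above it throughout.

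The genes whose pattern over the 10 libraries lay closest to a member were found by the root mean square difference of centred log2 CPM. Closest to Clic6 were Wnt7a, Mpped1 and LOC102553088, at 0.156, 0.157 and 0.158, beside a root mean square of 0.346 for Clic6 about its own mean. Closest to Clcn4 were Pianp (0.0244), Pdcd4 (0.0289) and Lrrc4c (0.0312), beside 0.0824 for Clcn4 itself. Closest to Lrrc8d were Dnaja1 (0.0354), Ncoa7 (0.0357) and Fam222b (0.0366), beside 0.0850 for Lrrc8d itself. Closest to Lrrc8a were Faf2 (0.0302), Acsbg1 (0.0325) and Myo5a (0.0330), beside 0.0717 for Lrrc8a itself.

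Other anion channel genes and their partners were counted on a list of 37 genes, of which 29 were tested and 6 passed, 5 higher and 1 lower. That is 20.7% of those tested, beside the 12.7% of all genes. Their median log2 fold change was 0.0066. This list too was drawn up with earlier results of these data known, so its share is a description only. Without dehydrated 1, euhydrated 2 or euhydrated 4, or with erythrocyte markers as a covariate, 3 passed.

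Among the 5 other chloride intracellular channel genes, all tested, 2 rose. Clic1, which moves between cytosol and membranes, stood at 35.9, 39.5, 44.6, 41.8 and 36.3 CPM in dehydrated libraries 1 to 5, against 28.7, 25.0, 29.6, 28.2 and 27.0 CPM in euhydrated libraries 1 to 5. The groups were well separated, and Clic1 rose 1.43-fold (log2 fold change 0.52 ± 0.06, SE, edgeR adjusted p = 5.92e-05), where Clic6 of the same family fell. Clic5, known from cells with actin-rich protrusions, rose 1.16-fold with overlapping groups (edgeR adjusted p = 0.0485) and lost its call in 17 of 21 alternatives, with adjusted p of 0.0195 to 0.280 over all of them. Among those were the fits without dehydrated 1, 3, 4 or 5 or without any 1 of the 5 euhydrated libraries, library totals, DESeq2 size factors, no filter, limma-voom, and the choroid plexus, erythrocyte and oligodendrocyte covariates.

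Of 9 other CLC genes and associated proteins 7 were tested, 1 rose and 1 fell. Clcn5, the endosomal exchanger closest in kind to Clcn3 and Clcn4, stood at 23.0, 23.4, 27.3, 22.3 and 25.0 CPM in dehydrated libraries 1 to 5, against 18.1, 19.3, 19.2, 16.5 and 19.4 CPM in euhydrated libraries 1 to 5. It rose 1.31-fold without overlap (log2 fold change 0.39 ± 0.06, SE, edgeR adjusted p = 0.000960), so of this exchanger branch Clcn5 rose, Clcn4 fell and Clcn3 did not pass. Tmem9, an endolysosomal membrane protein, fell to 38.0 ± 0.599 CPM in dehydrated libraries, against 42.1 ± 2.67 CPM in euhydrated libraries (SD, n = 5 each, edgeR adjusted p = 0.0449). Tmem9 lost its call in 15 of 21 alternatives (adjusted p of 0.00799 to 0.119 over all of them), among them each fit without 1 library other than euhydrated 5.

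Of 3 other anion channel genes 2 were tested. Pacc1, the proton-activated chloride channel of the plasma membrane and endosomes, stood at 19.3, 22.1, 23.9, 23.6 and 24.7 CPM in dehydrated libraries 1 to 5, against 15.0, 17.4, 17.4, 16.3 and 17.0 CPM in euhydrated libraries 1 to 5. It rose 1.37-fold without overlap (log2 fold change 0.45 ± 0.07, SE, edgeR adjusted p = 0.000469). Clic1, Clcn5 and Pacc1 passed in all 21 alternatives, with largest adjusted p of 0.00372, 0.0357 and 0.0309.

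Of 10 anoctamins 8 were tested, and Ano6, a calcium-activated lipid scramblase and ion channel, rose 1.13-fold with overlapping groups, to 41.2 ± 2.38 CPM in dehydrated libraries, against 36.4 ± 1.75 CPM in euhydrated libraries (SD, n = 5 each, edgeR adjusted p = 0.0234). Ano6 lost its call without dehydrated 1 or 2 or euhydrated 2 or 4 (adjusted p of 0.0517 to 0.0617) and with erythrocyte (0.120), oligodendrocyte (0.0547) or leptomeningeal (0.213) markers as a covariate. Its log2 fold change with those markers was 0.19 ± 0.07, 0.17 ± 0.05 and 0.12 ± 0.05 (SE) in the same order, beside 0.18 ± 0.05 as reported. Of 7 bestrophin and tweety genes 4 were tested and 0 passed in edgeR, 0 at an unadjusted p under 0.05, 0 in DESeq2 and 0 in limma-voom. Ttyh1 and Ttyh3, proposed anion channels, had log2 fold changes of -0.03 and 0.0066. Of the 3 glial partners, Mlc1, a protein tied to volume regulation in astrocytes, had a log2 fold change of -0.11 (95% interval -0.24 to 0.02) and Gpr37l1, an astrocyte receptor, one of -0.03 (95% interval -0.14 to 0.08), and 0 passed in edgeR, 0 at an unadjusted p under 0.05, 0 in DESeq2 and 0 in limma-voom.

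**Figure D4:**
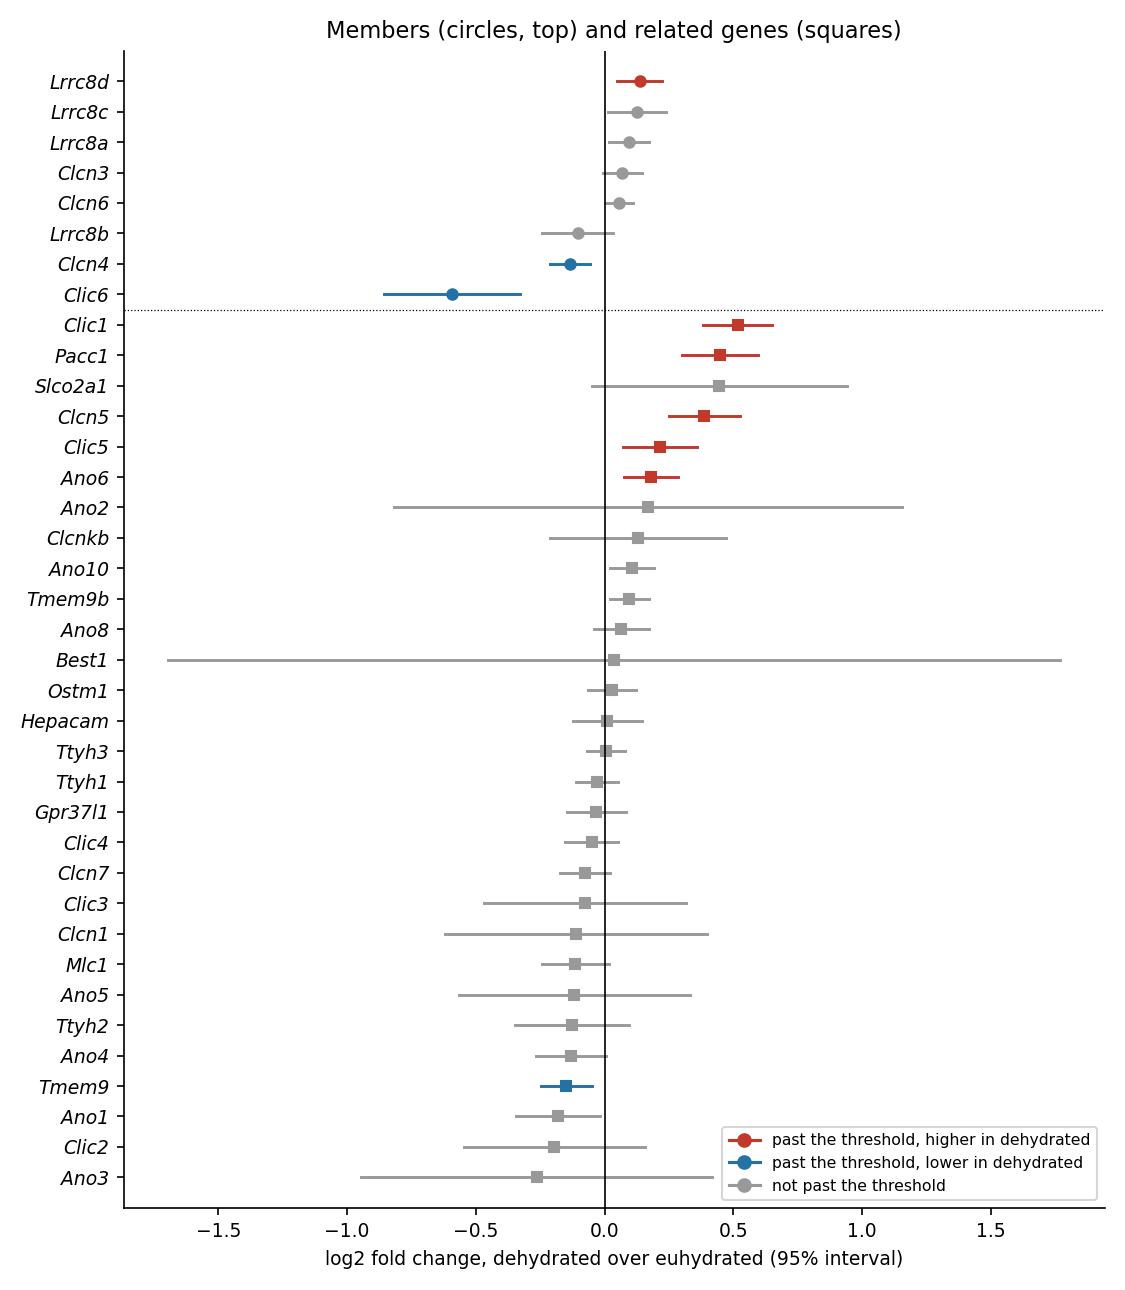
Log2 fold change, dehydrated over euhydrated, with its 95% interval from the edgeR fit, for the 8 tested members (circles, top) and the 29 tested related genes (squares). Red marks genes higher and blue genes lower in dehydrated libraries past the threshold, and grey marks those that did not pass. Clic1, Pacc1 and Clcn5 lie farthest right and Clic6 farthest left among the genes past the threshold.

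In the authors' deposited table, Clic6 had a log2 fold change of -0.59 and an adjusted p of 0.000338, Clcn4 one of -0.14 and 0.00835, and Lrrc8d one of 0.14 and 0.026. The authors' deposited table gave the other 5 tested members adjusted p of 0.114 (Lrrc8a), 0.371 (Lrrc8b), 0.156 (Lrrc8c), 0.274 (Clcn3) and 0.146 (Clcn6). The same 3 of 8 members were therefore under 0.05 there.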

How the data were processed

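The deposited count table holds whole-number reads for each Ensembl gene, not normalised. A second deposited table holds, per the file headers, the authors' log2 fold changes, each with a standard error, a p-value and its adjusted value, and normalised counts per sample (a signal). All of these normalised values (100%) equalled the count over 1 size factor per sample, within 1% or 0.1. The submitters' processing notes name STAR, featureCounts, CASAVA, FastQC and DESeq2 1.28.1. The library kit was stranded, per the labels' protocols. Build, annotation release and strand setting were not known here, so overlapping, antisense or near-identical genes are uncertain.

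Symbols came from the authors' deposited table, joined by Ensembl identifier. Euhydrated columns 3 to 5 carry numbers on which titles and descriptions differ and were tied to the group alone. Libraries are called by column number. No library repeated another of its group: over genes of 20 or more reads, chi-square divided by its degrees of freedom was 4.86 to 12.1 for all pairs. Genes kept by filterByExpr were compared with edgeR 4.0.16 in R 4.3.3 (TMM, glmQLFit robust, glmQLFTest, no covariate), with intervals from the fit's standard error. On simulated data with 50 genes at each changed fold and 15111 unchanged, edgeR's test called 4% at 1.1-fold, 66% at 1.25-fold and 96% at 1.5-fold. In the real data 1942 genes passed, so the adjustment was less strict there and these rates do not carry over. Lrrc8d and Clcn4, both near 1.10-fold, were called. Other changes of that size may still have been missed. DESeq2 1.42.0 and limma 3.58.1 were alternatives. The members, the gene lists and the alternatives were chosen with earlier results of these data known. Named genes were all members, the related genes past the threshold or, in a list with none, its 2 highest in CPM, and the 3 genes (mean of at least 5 CPM) nearest in log2 CPM (prior count 2) to Clic6, Lrrc8a and each member past the threshold. No transcript lengths were used, so levels are not compared between genes. Cages, not single rats, were allotted to the treatments, and no cage term was fitted. Marker covariates were mean log2 CPM of a list. Upstream windows came from RefSeq (GRCr8).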

Additional observations from a re-analysis of the deposited data

Results flagged for a closer look

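Ttyh1 in dehydrated 5 was at 567.5 CPM, apart from the other 4 dehydrated libraries at 609 to 623 CPM, with a gap of 0.751 of the group's range, past Dixon's 95% value of 0.71. It was the only case among 36 sets of 5 libraries examined, and chance flags about 1 in 20 such sets.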

How the results depend on the processing

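Clic6, Clic1, Clcn5 and Pacc1 kept direction in all 21 alternatives, and only Clic6 lost its call, in 1 of them. Lrrc8a, Lrrc8b, Clcn3 and Clcn6 passed in none. With erythrocyte markers as a covariate 784 genes, 1 member and 3 related genes passed, and with leptomeningeal markers 1167 genes passed; the cause was not tested. Leaving out 1 library gave 1494 to 1756 genes, 1 to 3 members and 3 to 5 related genes. Columns share only a number between groups. With the replicate block (numbers 1 and 2 paired, correlations of deviations -0.0682 and 0.141) 1861 genes and 2 members passed, and Lrrc8d was lost (0.14, adjusted p = 0.056). Signs turned for 3 genes that never passed: Ttyh1 with erythrocyte markers (0.0049), Ttyh3 with library totals (-0.021) and without 1 library (-0.012 to 0.023), and Gpr37l1 without 1 library (-0.061 to 0.00035). Library totals shifted the median over all genes by -0.027 (log2). Without 1 library, the difference in share of Lrrc8 reads ran from -0.548 to 0.638 percentage points for Lrrc8a (0.08 with all libraries), from -0.0356 to 0.547 for Lrrc8c (0.346, negative without euhydrated 3), from 0.391 to 1.05 for Lrrc8d (0.642) and from -1.22 to -0.863 for Lrrc8b (-1.06), so those of Lrrc8a and Lrrc8c have no settled sign. Lrrc8e and Clcn2 were tested only with no filter on low counts (adjusted p = 0.803 and 0.566), where few reads limit what can be seen.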
